A study of Mus musculus with 8 samples.

Results

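This report concerns 50 genes of the Wnt pathway in the retinal pigment epithelium (RPE), the pigmented cell layer behind the photoreceptors, of mice that lack the ciliary gene Bbs8. The genes were chosen by symbol from a fixed list of Wnt ligands, receptors, antagonists, intracellular components and targets, and all 50 were found among the 31053 gene identifiers of the count files. They comprised 9 ligand genes (with the secretion factor Wls), 10 receptors, 3 genes of the R-spondin axis, 8 secreted antagonists, 7 cytoplasmic components, 7 nuclear factors and 6 feedback targets. Transcripts were counted by QuantSeq 3′ mRNA sequencing, which takes reads from the 3′ end of polyadenylated transcripts, in RPE eyecups from C57/Bl6 mice at postnatal day 11 (P11). A group of 4 libraries came from Bbs8-/- animals (the mutants), a knockout line made in earlier work, and a group of 4 from wild type littermates (Bbs8+/+, the controls), with no treatment in either group. An eyecup is what remains after the retina, lens, cornea and optic nerve are removed, so it holds RPE together with the tissue behind it.

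Wnt proteins are secreted lipid-modified ligands that bind Frizzled receptors and, for the canonical branch, the co-receptors Lrp5 and Lrp6. Without ligand, a complex built on Axin, Apc and Gsk3b marks β-catenin for destruction. With ligand, β-catenin accumulates, enters the nucleus and activates genes with TCF and LEF factors. Several of these genes, Axin2 among them, encode inhibitors that act back on the pathway. Other Wnt signals act without β-catenin on cell polarity and movement. In the eye, Wnt signalling takes part in RPE specification and in vascular growth, and proteins of the BBSome, the ciliary complex to which Bbs8 belongs, have been linked to its control. The comparison addressed which transcripts of the pathway differed between the genotypes at P11.

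The libraries held 1636725 to 2884983 counts in genes, so that 3 counts, taken as the smallest level the depth could show, corresponded to 1.04 to 1.83 CPM, that is, counts scaled to the library total. Levels are given as CPM after TMM normalization, and because a 3′ read count is not scaled by transcript length they are compared between libraries and not between genes. The targeted gene, Ttc8 in the annotation, stood at 14.6, 19.7, 18.2 and 21.6 CPM in Bbs8+/+ against 9.70, 3.65, 2.29 and 4.20 CPM in Bbs8-/- (log2 fold change -1.95, SE 0.319, edgeR FDR 2.74e-06). Of 12 RPE markers, all 12 passed the filter on low counts, and their summed level was 21864 to 22954 CPM in Bbs8+/+ and 23127 to 23376 CPM in Bbs8-/-. The largest part of that sum was Ttr, at 10937 ± 513 CPM in controls and 11657 ± 61.6 CPM in mutants (SD, n = 4, edgeR FDR 0.0686). By sign 7 of the 12 were higher and 5 lower, and the 1 called, Otx2, a transcription factor of the RPE, was higher (log2 fold change 0.48, edgeR FDR 6.01e-12). Rpe65 was among the 5 lower, at 1998 ± 98.4 CPM in controls and 1824 ± 81.5 CPM in mutants (log2 fold change -0.13, edgeR FDR 0.0843). Markers of other tissues differed with genotype. The summed level of 15 lens genes was 62.9 to 79.9 CPM in Bbs8+/+ and 486 to 529 CPM in Bbs8-/-, with 11 of 15 higher at FDR 0.05. The sum of 7 keratins of corneal and conjunctival epithelium was 14.9 to 20.5 CPM in Bbs8+/+ and 0 to 0.606 CPM in Bbs8-/-, with Krt14 at 0 in every library. Y-linked genes and Xist were counted in all 8 libraries, and 4 Y-linked genes summed to 59.0 to 64.9 CPM in Bbs8+/+ and 108 to 120 CPM in Bbs8-/-. Xist, the transcript of the inactive X chromosome of females, was at 640 to 746 CPM in Bbs8+/+ and at 570 to 625 CPM in Bbs8-/-. A single mouse of either sex does not give both at such levels, so each library held reads from both sexes although the study counts each animal as a replicate. How this came about was not tested. The n of 4 here counts libraries, and p-values measure the spread between them. The part of these marker differences in the results on Wnt genes was not tested.

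Of the 50 Wnt genes, 45 passed the filter of at least 1 CPM in at least 4 libraries and were tested. At FDR 0.05 no Wnt gene was higher in Bbs8-/-, where 1.1% of all 13813 tested genes were, and 3 were lower, where 1.14% of all tested genes were. The 3 were Ctnnb1, which encodes β-catenin, and Dkk3 and Sfrp2, both listed as secreted antagonists. They make up 6.67% of the 45. At an unadjusted p under 0.05, 0 of 45 were higher, against 6.38% of all tested genes, and 8 were lower (17.8%), against 6.6% of all tested genes. No overlap between genotypes was seen for 2 Wnt genes that were higher in Bbs8-/- (4.44%), Wls and Gsk3b, against 3.62% of all tested genes. The same held for 4 that were lower (8.89%), Wnt5a, Sfrp2, Dkk3 and Ctnnb1, against 3.76% of all tested genes. Shares of the Wnt genes were not tested against those of all genes.

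By the sign of the estimate, 17 Wnt genes were higher and 28 were lower in Bbs8-/-. Their median log2 fold change was -0.08, with a range from -0.84 to 0.64, and the median over all tested genes was -0.0041. Without Bbs8-/- replicate 3 the median of the Wnt genes was -0.0042, and without Bbs8+/+ replicate 2 it was -0.011. The median absolute log2 fold change was 0.17 in the Wnt genes and 0.19 in all tested genes. By class the median was -0.25 for 6 tested ligand genes, -0.10 for 10 receptors, -0.65 for 2 genes of the R-spondin axis, -0.03 for 8 antagonists, -0.00094 for 7 cytoplasmic components, -0.01 for 7 nuclear factors and -0.0058 for 5 feedback targets. The counts set how closely each change was bounded. The 95% interval of the log2 fold change lay within -1 and 1 for 34 of the 45 genes and within -0.5 and 0.5 for 15.

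**Figure D1:**
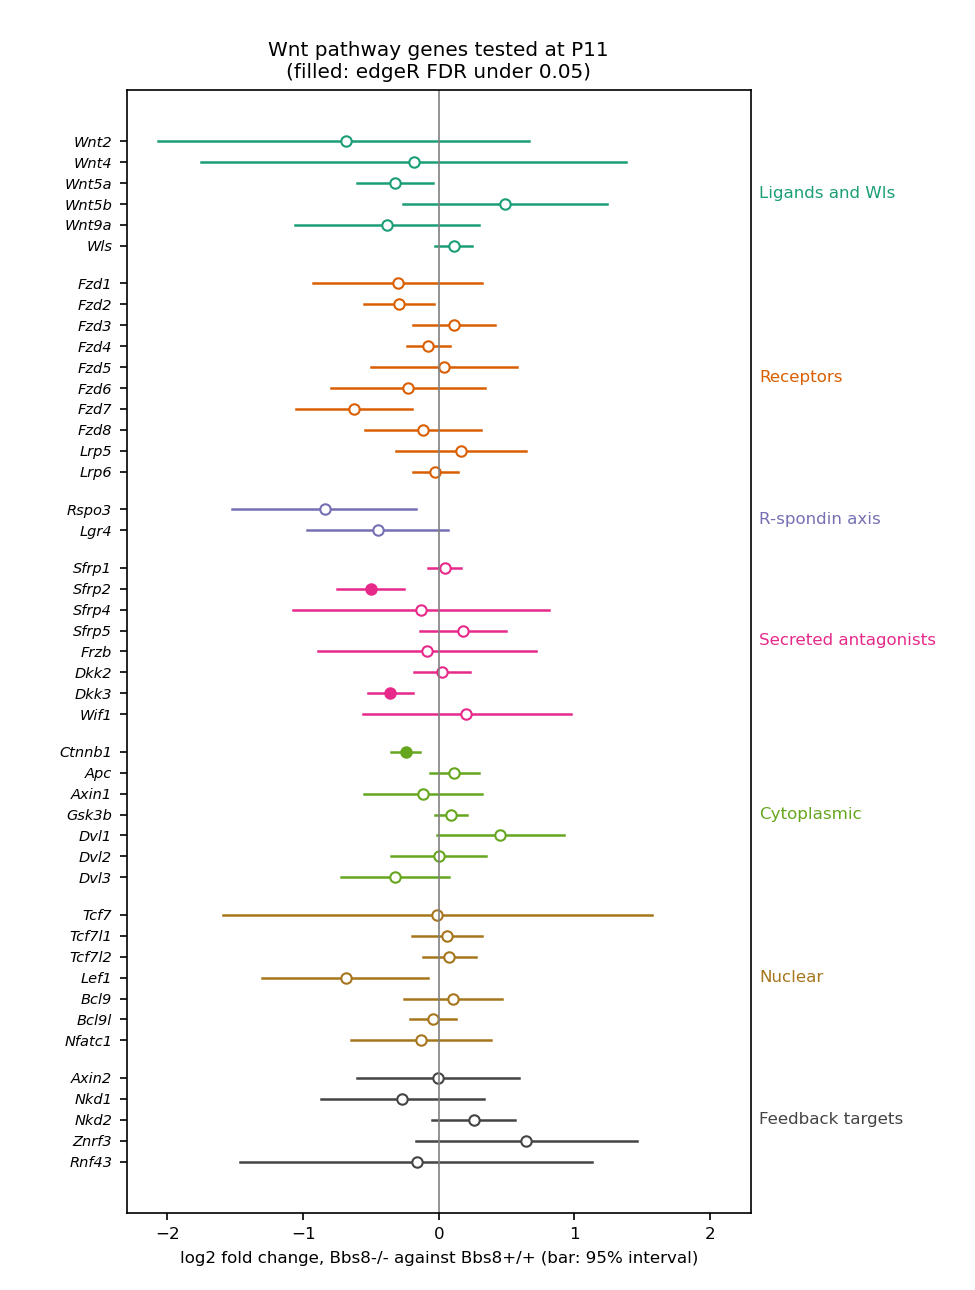
Log2 fold change of each of the 45 tested Wnt genes, Bbs8-/- against Bbs8+/+, on the x axis with its 95% interval (edgeR, n = 4 libraries per genotype). Genes are grouped by role. Filled points mark the 3 genes below FDR 0.05, Sfrp2, Dkk3 and Ctnnb1, all of them left of 0, and the widest intervals belong to ligands and nuclear factors with few counts such as Wnt2, Wnt4 and Tcf7, and to Rnf43.

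**Figure D2:**
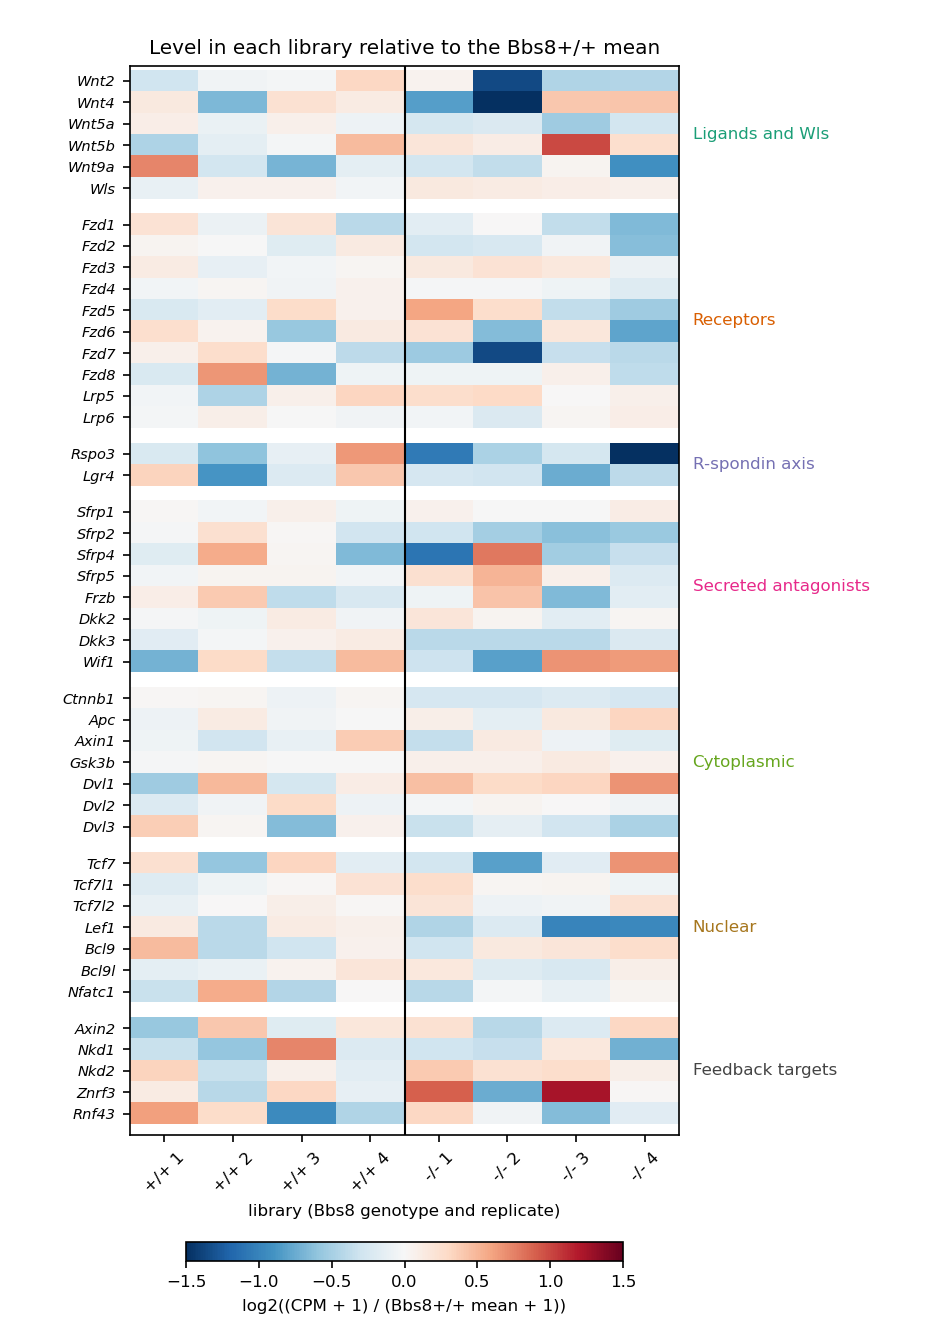
Level of the 45 tested Wnt genes (rows, by role) in each of the 8 libraries (columns), as the log2 ratio to the mean of the Bbs8+/+ libraries after adding 1 CPM to both. Blue is below and red above that mean. The rows of Wnt5a, Fzd2, Fzd4, Fzd7, Rspo3, Lgr4, Sfrp2, Dkk3, Ctnnb1, Dvl3 and Lef1 lie below that mean in all 4 Bbs8-/- libraries. Those of Wnt5b, Wls, Lrp5, Gsk3b, Dvl1 and Nkd2 lie above it in all 4.

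Among the cytoplasmic components, Ctnnb1 (ENSMUSG00000006932, chromosome 9 from 120929216 to 120960507 in mm10, plus strand) was lower in Bbs8-/-. β-catenin has a part in adherens junctions, where it joins cadherins to the actin cytoskeleton, besides its part in Wnt signalling. Bbs8+/+ replicates 1 to 4 gave 707, 708, 660 and 708 CPM, and Bbs8-/- replicates 1 to 4 gave 582, 582, 602 and 585 CPM. Every Bbs8-/- library was below every Bbs8+/+ library, and the spread within a genotype was small. Mean Ctnnb1 levels were 696 ± 24.0 CPM in controls and 588 ± 9.63 CPM in mutants (SD, n = 4), and the log2 fold change was -0.24 (SE 0.055, 95% interval -0.35 to -0.14, edgeR FDR 0.00207), which is a decrease by 15.5%. Ctnnb1 ranked 125 of 13813 tested genes by p. Its exons overlap those of Ulk4 on the opposite strand, which had 3 to 15 counts per library.

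The remaining 6 cytoplasmic components did not pass the test. Gsk3b, the kinase of the destruction complex, was at 432, 447, 435 and 436 CPM in Bbs8+/+ and at 463, 463, 479 and 456 CPM in Bbs8-/- (log2 fold change 0.09, SE 0.060, edgeR FDR 0.571). Its Bbs8-/- libraries were all above its Bbs8+/+ libraries by a small margin. The scaffold genes Apc and Axin1 had log2 fold changes of 0.12 (95% interval -0.07 to 0.30) and -0.12 (-0.55 to 0.32). The Dishevelled genes, which relay the signal from the receptor, lay at 0.45 for Dvl1 (-0.01 to 0.93), -0.00094 for Dvl2 (-0.35 to 0.35) and -0.32 for Dvl3 (-0.72 to 0.08), and their libraries overlapped between genotypes.

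Of the 8 genes listed as secreted antagonists, a class that acts on Wnt proteins or their receptors outside the cell, 2 were lower in Bbs8-/- and 6 did not pass the test. Dkk3 (ENSMUSG00000030772, chromosome 7 from 112116017 to 112159057, minus strand) is a divergent member of the Dickkopf family. It was placed with the antagonists by the list, and its action on Wnt signalling was not measured here. Control replicates 1 to 4 gave 176, 193, 206 and 215 CPM of Dkk3, and mutant replicates 1 to 4 gave 149, 149, 149 and 170 CPM. The groups did not overlap, although Bbs8+/+ replicate 1 and Bbs8-/- replicate 4 lay close together. Mean Dkk3 levels were 197 ± 17.0 CPM in controls and 154 ± 10.6 CPM in mutants (SD, n = 4), and the log2 fold change was -0.36 (SE 0.084, 95% interval -0.52 to -0.19, edgeR FDR 0.00367).

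Sfrp2 (ENSMUSG00000027996, chromosome 3 from 83766321 to 83774316, plus strand), a secreted Frizzled-related protein, showed the largest estimated change of the 3. Control replicates 1 to 4 gave 82.3, 99.1, 84.5 and 68.1 CPM of Sfrp2, and mutant replicates 1 to 4 gave 67.9, 58.5, 53.7 and 56.5 CPM. The lowest Bbs8+/+ library and the highest Bbs8-/- library differed by less than the spread within either genotype. Mean Sfrp2 levels were 83.5 ± 12.7 CPM in controls and 59.1 ± 6.18 CPM in mutants (SD, n = 4), and the log2 fold change was -0.50 (SE 0.124, 95% interval -0.75 to -0.26, edgeR FDR 0.00759). The call was lost without Bbs8+/+ replicate 2 (log2 fold change -0.40, FDR 0.126) and without Bbs8-/- replicate 3 (-0.45, FDR 0.0582). Its exons overlap those of Gm26771 on the opposite strand, which had 0 to 10 counts per library.

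Sfrp1, the antagonist with the most reads, was at 462, 443, 481 and 434 CPM in Bbs8+/+ and at 477, 453, 453 and 490 CPM in Bbs8-/-, and the genotypes overlapped. Its log2 fold change was 0.04 with a 95% interval from -0.08 to 0.16. The other antagonists were Sfrp5 (0.18), Wif1 (0.20), Dkk2 (0.03), Frzb (-0.09) and Sfrp4 (-0.13), all with overlapping libraries and an edgeR FDR of at least 0.713. The interval was narrow for Dkk2, from -0.18 to 0.23, and wide for Sfrp4, from -1.08 to 0.81.

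**Figure D3:**
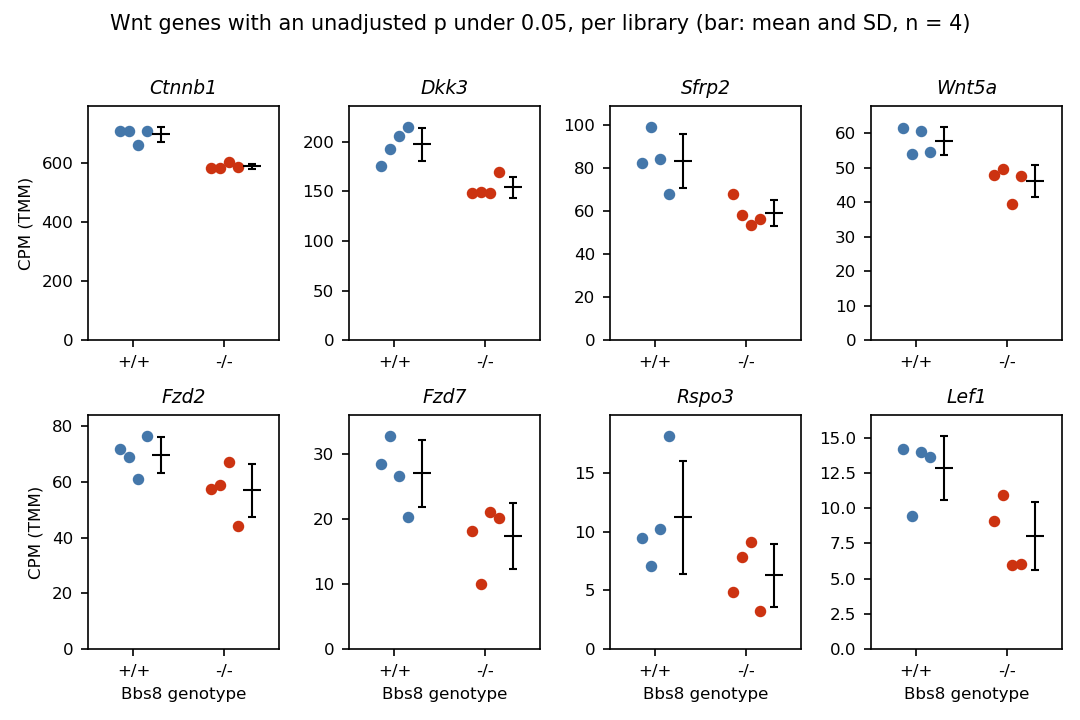
CPM of 8 Wnt genes (one panel each, y axis from 0) in each Bbs8+/+ library (blue) and each Bbs8-/- library (red), with the mean and SD of the 4 libraries in black. The panels show the 3 genes called at FDR 0.05, Ctnnb1, Dkk3 and Sfrp2, and 5 with an unadjusted p under 0.05 only. The genotypes do not overlap for Ctnnb1, Dkk3, Sfrp2 and Wnt5a, and they overlap for Fzd2, Fzd7, Rspo3 and Lef1.

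Summed levels of several cell type marker lists were also lower in the Bbs8-/- libraries. For 9 genes of fibroblasts and sclera, the fibrous coat behind the RPE, the summed level was 34929 to 36723 CPM in Bbs8+/+ and 27549 to 28739 CPM in Bbs8-/-, and 3 of 9 (Col1a1, Col1a2 and Col3a1, which encode fibrillar collagens) were lower at FDR 0.05. The list did not move one way: 3 of the other 6 were higher by sign, and Dcn, a matrix proteoglycan, was at 5884 ± 151 CPM in controls and 6250 ± 122 CPM in mutants (SD, n = 4) without overlap (log2 fold change 0.09, edgeR FDR 0.174). For 8 pigment cell genes the sum was 13975 to 14659 CPM in Bbs8+/+ and 11591 to 12159 CPM in Bbs8-/-, with 5 of 8 lower at FDR 0.05, while Tyr, Sox10 and Kit lay between -0.05 and 0.02 on the log2 scale with overlapping libraries. For 9 genes of Müller glia and inner retina it was 1028 to 1081 CPM in Bbs8+/+ and 969 to 1025 CPM in Bbs8-/-, with 0 of 9 called and 3 of 9 higher by sign. Most of that sum was Glul, at 883 ± 23.0 CPM in controls and 851 ± 22.4 CPM in mutants (SD, n = 4), which overlapped (edgeR FDR 0.731). In whole tissue, fewer cells of a type and less RNA per cell cannot be told apart. The part of these cell types in the lower levels of the 3 Wnt genes was not tested.

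Among the ligands, the only one with an unadjusted p under 0.05 was Wnt5a, which acts mainly without β-catenin. It was at 61.6, 53.9, 60.7 and 54.5 CPM in Bbs8+/+ and at 47.9, 49.6, 39.4 and 47.6 CPM in Bbs8-/-. All 4 Bbs8-/- libraries were below all 4 Bbs8+/+ libraries, and the log2 fold change was -0.32 (SE 0.14, 95% interval -0.60 to -0.05), but the gene did not pass the test over all genes (edgeR FDR 0.28). Wls, the carrier that takes Wnt proteins to the cell surface, was the gene of this class with the most reads. It was at 268, 304, 304 and 282 CPM in Bbs8+/+ and at 321, 314, 310 and 304 CPM in Bbs8-/- (log2 fold change 0.11, SE 0.068, edgeR FDR 0.521).

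The other tested ligands had few reads. Wnt2, Wnt4, Wnt5b and Wnt9a had log2 fold changes of -0.69, -0.18, 0.49 and -0.38, with overlapping libraries and standard errors between 0.344 and 0.791. Wnt2b, Wnt6 and Wnt11 were not tested. Wnt2b had 2, 0, 0 and 6 counts in the Bbs8+/+ libraries and 0 in every Bbs8-/- library, Wnt6 reached 4 counts in its highest library, and Wnt11 reached 5. In the complete family of 19 Wnt ligands, 5 passed the filter, and the 14 that did not stayed at or below 7 counts per library. Differences in those 14 were not detectable at this depth.

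Of the 10 receptors, none passed the test, and Fzd2 and Fzd7 had an unadjusted p under 0.05. Fzd7 was at 28.4, 32.6, 26.6 and 20.2 CPM in Bbs8+/+ and at 18.2, 9.92, 21.1 and 20.1 CPM in Bbs8-/-. Bbs8-/- replicate 3 lay above Bbs8+/+ replicate 4, so that the genotypes overlapped (log2 fold change -0.63, SE 0.216, 95% interval -1.05 to -0.20, edgeR FDR 0.12). Fzd2 was at 71.9, 69.2, 61.2 and 76.4 CPM in Bbs8+/+ and at 57.6, 59.0, 67.4 and 44.4 CPM in Bbs8-/- (log2 fold change -0.29, SE 0.13, edgeR FDR 0.297). Its highest Bbs8-/- library was above its lowest Bbs8+/+ library, and without Bbs8-/- replicate 4 the estimate was -0.18 and the unadjusted p was no longer under 0.05.

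Fzd4, which with Lrp5 serves the retinal vessel signal norrin as well as Wnt proteins, was at 194, 205, 193 and 209 CPM in Bbs8+/+ and at 197, 198, 192 and 175 CPM in Bbs8-/-. Its log2 fold change of -0.08 had a 95% interval from -0.23 to 0.08. The co-receptor genes Lrp5 and Lrp6 lay at 0.17 (-0.31 to 0.65) and -0.02 (-0.19 to 0.14). The log2 fold changes of the remaining receptors were -0.30 for Fzd1, 0.11 for Fzd3, 0.04 for Fzd5, -0.23 for Fzd6 and -0.12 for Fzd8, and all of their libraries overlapped between genotypes.

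R-spondins are secreted proteins that bind Lgr receptors and raise the amount of Frizzled on the cell surface. Rspo3 was at 9.48, 7.08, 10.3 and 18.1 CPM in Bbs8+/+ and at 4.85, 7.83, 9.17 and 3.27 CPM in Bbs8-/-. The genotypes overlapped, and the log2 fold change of -0.84 (SE 0.343, 95% interval -1.53 to -0.17) was the lowest of all 45 genes but did not pass the test (edgeR FDR 0.228). Without Bbs8+/+ replicate 4, the library with its highest level, the estimate was -0.49. The receptor Lgr4 was at 21.5, 8.65, 14.5 and 22.7 CPM in Bbs8+/+ and at 13.9, 13.6, 9.63 and 12.6 CPM in Bbs8-/- (log2 fold change -0.45, SE 0.264, edgeR FDR 0.488), and its estimate was -0.26 without Bbs8+/+ replicate 4. Rspo1 was not tested, with 7, 1, 1 and 2 counts in the Bbs8+/+ libraries and 0, 5, 3 and 1 in the Bbs8-/- libraries.

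Feedback targets report on signalling through β-catenin, and none of the 5 that were tested passed the test or had an unadjusted p under 0.05. Axin2, the most widely used of these readouts, was at 6.89, 14.5, 9.34 and 12.2 CPM in Bbs8+/+ and at 12.7, 7.83, 9.17 and 13.5 CPM in Bbs8-/-. The means were 10.7 ± 3.34 and 10.8 ± 2.75 CPM (SD, n = 4), and the log2 fold change was -0.0058 with a 95% interval from -0.60 to 0.59. A change in either direction within that interval was not excluded. Its sign changed between alternatives, from -0.16 to 0.17. Nkd1 and Nkd2 encode Dishevelled-binding inhibitors. Nkd1 was at 9.48, 7.86, 21.0 and 10.5 CPM in Bbs8+/+ and at 9.70, 9.40, 13.8 and 7.0 CPM in Bbs8-/- (log2 fold change -0.27, 95% interval -0.87 to 0.33), and its estimate turned to 0.11 without Bbs8+/+ replicate 3. Nkd2 was at 48.7, 30.3, 40.6 and 34.6 CPM in Bbs8+/+ and at 50.9, 45.4, 46.3 and 41.1 CPM in Bbs8-/- (0.26, -0.05 to 0.57), with estimates of 0.16 without Bbs8+/+ replicate 2 and 0.39 without Bbs8+/+ replicate 1. Both genes overlapped between genotypes.

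Znrf3 and Rnf43 encode membrane ubiquitin ligases that remove Frizzled from the cell surface. Znrf3 was at 5.60, 3.54, 6.54 and 4.54 CPM in Bbs8+/+ and at 10.3, 2.61, 13.3 and 5.14 CPM in Bbs8-/-, and its log2 fold change of 0.64 (SE 0.411, 95% interval -0.17 to 1.46, edgeR FDR 0.537) was the highest of the 45 in the fit of all 8 libraries. It was 0.24 without Bbs8-/- replicate 3 and 0.93 without Bbs8-/- replicate 2. Bbs8-/- replicates 1 and 3 were above all Bbs8+/+ libraries and replicate 2 was below them. Rnf43 was at 4.74, 3.54, 0.934 and 1.75 CPM in Bbs8+/+ and at 3.64, 2.61, 1.38 and 2.33 CPM in Bbs8-/- (-0.16, -1.46 to 1.13). Notum, a secreted Wnt deacylase, was not tested, with 2 counts in Bbs8+/+ replicate 2 and 0 in the other 7 libraries.

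**Figure D4:**
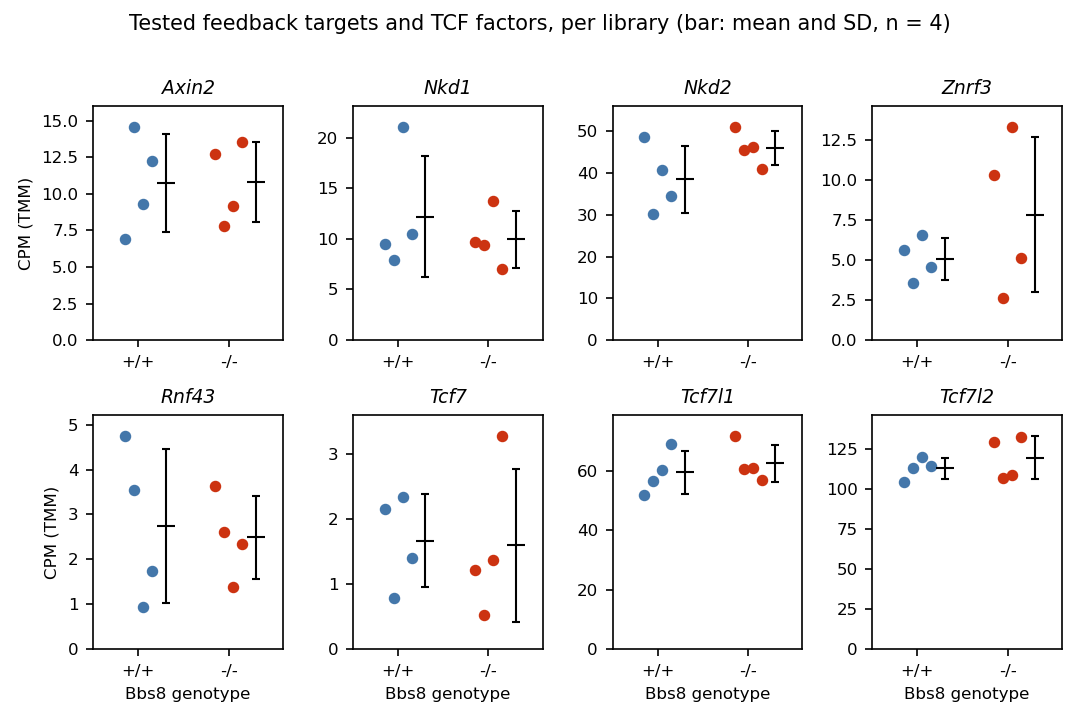
CPM of the 5 tested feedback targets and of Tcf7, Tcf7l1 and Tcf7l2 (one panel each, y axis from 0) in each Bbs8+/+ library (blue) and each Bbs8-/- library (red), with the mean and SD of the 4 libraries in black. The genotypes overlap in all 8 panels, and the widest spread among Bbs8-/- libraries relative to the mean is that of Tcf7 and Znrf3.

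The nuclear class holds the TCF and LEF factors that bind DNA and the proteins that work with them. None of its 7 genes passed the test. Lef1, which is also a target of the pathway in many tissues, was at 14.2, 9.44, 14.0 and 13.6 CPM in Bbs8+/+ and at 9.10, 11.0, 5.96 and 6.07 CPM in Bbs8-/- (log2 fold change -0.69, SE 0.309, 95% interval -1.30 to -0.08, edgeR FDR 0.303). The overlap came from Bbs8+/+ replicate 2, which was below the other 3 Bbs8+/+ libraries. Tcf7, also a target, was at 2.15, 0.786, 2.33 and 1.40 CPM in Bbs8+/+ and at 1.21, 0.522, 1.38 and 3.27 CPM in Bbs8-/- (-0.01, -1.59 to 1.57), where some libraries were below the level of 3 counts.

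Tcf7l1 and Tcf7l2 had more reads and were more closely bounded, with log2 fold changes of 0.06 (95% interval -0.20 to 0.32) and 0.08 (-0.11 to 0.27). The β-catenin co-activator Bcl9l was at 159, 164, 184 and 200 CPM in Bbs8+/+ and at 198, 155, 149 and 187 CPM in Bbs8-/- (-0.04, -0.21 to 0.13). Its relative Bcl9 lay at 0.10 (-0.26 to 0.47). Nfatc1, a calcium-regulated factor counted here with the β-catenin-independent branch, lay at -0.13 (-0.65 to 0.38).

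The mean level of the tested Wnt genes over the 8 libraries ran from 1.63 to 642 CPM with a median of 22.2 CPM, and the median over all tested genes was 18.7 CPM. The biological coefficient of variation of edgeR measures here the spread between libraries and cannot be taken as that between animals. It was 5.88% for Ctnnb1, 7.11% for Dkk3 and 9.33% for Sfrp2. It was 20.8% for Axin2, 28.2% for Znrf3 and 42.3% for Tcf7. Summed over all 50 genes, the level was 3664 to 3750 CPM in Bbs8+/+ and 3495 to 3653 CPM in Bbs8-/-, without overlap. Without Ctnnb1, the sum of the other 49 was 2957 to 3045 CPM in Bbs8+/+ and 2913 to 3071 CPM in Bbs8-/-, and the genotypes overlapped.

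**Figure D5:**
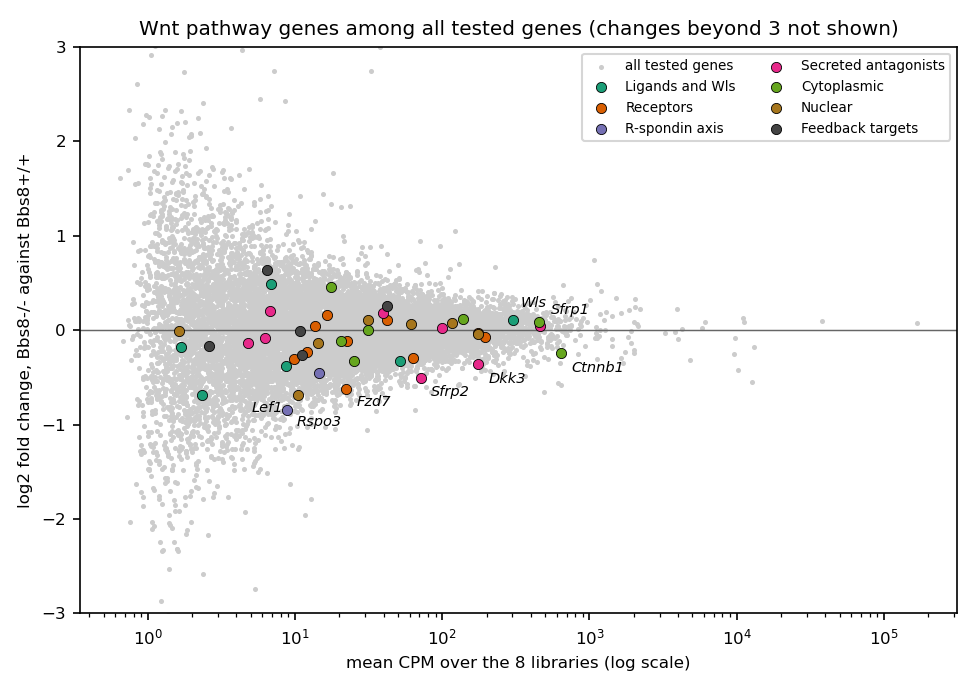
Log2 fold change (y axis, Bbs8-/- against Bbs8+/+) against mean CPM over the 8 libraries (x axis, log scale) for all 13813 tested genes in grey and the 45 tested Wnt genes in colour by role. The spread of the grey cloud narrows to the right. Ctnnb1, Dkk3 and Sfrp2 lie in its lower part and rank 125, 142 and 163 of all tested genes by p, while Rspo3 and Lef1 have larger estimates at low CPM.

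The sequences before the transcription starts of Ctnnb1 and Sfrp2 are shown because these genes were lower in Bbs8-/-, that of Axin2 because it is the usual readout of the pathway, and that of Wnt5b because it holds a TCF/LEF core motif. RefSeq promoter windows (GRCm38.p6, the assembly of mm10, 250 bases before to 50 after a start) were found for 33 of the 50 genes, with 43 windows, and Dkk3 was not among them. The motifs searched were CTTTGAT and CTTTGAA on both strands, and they stand in capitals. They occurred in a window of 2 of the 33 genes (6.06%), Wnt5b and Wnt11, against 9.88% of all 27025 genes with a window and 7.07% of 10682 tested genes with one. Shown 5′ to 3′ are the 250 bases before the start at chr9:120933150-120933399 (plus strand) for the first of 2 Ctnnb1 windows, chr3:83766071-83766320 (plus) for Sfrp2, chr11:108920099-108920348 (plus) for Axin2 and chr6:119449387-119449636 (minus) for the third of 3 Wnt5b windows. The Ctnnb1 and Wnt5b starts lie inside the genes as annotated. None of the 4 stretches overlaps an annotated exon.
Ctnnb1: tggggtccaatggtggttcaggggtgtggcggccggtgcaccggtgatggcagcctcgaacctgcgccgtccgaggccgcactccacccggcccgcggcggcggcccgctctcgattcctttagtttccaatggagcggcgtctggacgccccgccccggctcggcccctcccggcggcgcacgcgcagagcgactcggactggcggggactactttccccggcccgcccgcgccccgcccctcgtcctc
Sfrp2: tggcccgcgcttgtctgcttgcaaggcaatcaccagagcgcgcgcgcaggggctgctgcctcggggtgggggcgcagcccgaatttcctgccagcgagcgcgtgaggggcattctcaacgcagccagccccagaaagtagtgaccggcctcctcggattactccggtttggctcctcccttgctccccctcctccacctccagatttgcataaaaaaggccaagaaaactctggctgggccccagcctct
Axin2: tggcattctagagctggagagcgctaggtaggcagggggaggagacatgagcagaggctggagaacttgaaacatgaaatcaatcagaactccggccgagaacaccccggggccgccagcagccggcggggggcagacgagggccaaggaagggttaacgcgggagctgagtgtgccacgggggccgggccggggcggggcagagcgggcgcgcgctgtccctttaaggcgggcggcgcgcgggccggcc
Wnt5b: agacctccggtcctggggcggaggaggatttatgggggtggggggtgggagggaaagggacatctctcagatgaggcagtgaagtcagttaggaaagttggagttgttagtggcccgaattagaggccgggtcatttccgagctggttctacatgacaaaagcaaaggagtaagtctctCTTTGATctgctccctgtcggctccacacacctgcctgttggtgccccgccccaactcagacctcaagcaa
The first 3 stretches hold neither motif, and the Wnt5b stretch holds 1, beginning 71 bases before the start. The absence of these letters concerns only this window. The Ctnnb1 stretch has 74.8% G and C and 35 CpG dinucleotides, the Sfrp2 stretch 63.6% and 16, the Axin2 stretch 69.2% and 24, and the Wnt5b stretch 55.6% and 7.

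A further 86 genes of the pathway outside the 50, listed by role, gave 61 tested genes, and 0 of them passed FDR 0.05 in edgeR. At an unadjusted p under 0.05, 5 (8.2%) were higher and 2 (3.28%) were lower in Bbs8-/-, against 6.38% and 6.6% of all tested genes, and the median log2 fold change was -0.02. The antagonists Sostdc1 and Trabd2b, a protease that cleaves Wnt proteins, had log2 fold changes of 0.19 (SE 0.069, FDR 0.145) and 0.46 (SE 0.179, FDR 0.198), and their libraries did not overlap. Amer1, a partner of Apc, lay at 0.35 (FDR 0.16), the factor Nfatc2 at 0.84 (FDR 0.35) and the target Id2 at 0.12 (FDR 0.341). The 2 that were lower were Ryk, a Wnt co-receptor, at -0.33 (SE 0.112, FDR 0.109) and Pygo2, a nuclear partner of the Bcl9 proteins, at -0.43 (SE 0.160, FDR 0.163). Ryk overlapped between genotypes and Pygo2 did not. Of the 61, the genotypes did not overlap for 4 that were higher (Sostdc1, Trabd2b, Smarca4 and Id2) and 1 that was lower. Over all tested genes the shares were 3.62% and 3.76%. Of the 15 further targets, 11 were tested and 0 were called, including the cell cycle gene Ccnd1 with a log2 fold change of 0.10 (SE 0.072).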

How the data were processed

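The deposited values were unnormalized counts per gene of reads with a unique alignment, with 1 file per library. Per the study's methods, the authors trimmed reads with BBDuk, aligned them with STAR to mm10 and counted them with htseq-count. The strand setting and molecular identifiers were not given in the sources used here, so overlapping genes are uncertain and floors cover counting error only. A filter of the study on reads with several alignments was not applied. The methods count each animal as a biological replicate, and the series description gives 4 mice per genotype. Each library nevertheless held reads from both sexes, and how mice and libraries correspond is therefore uncertain. The 5 summary lines of each file that name no gene stayed out of library sizes and tests and held 57.5% to 59.3% of all counted reads.

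Symbols came from GENCODE M21, the same assembly, which held 30934 of 31053 identifiers. The Wnt genes, the other gene lists and the tests were chosen with earlier results of these data known. The test was edgeR's quasi-likelihood F test (edgeR 4.0.16, R 4.3.3, TMM, at least 1 CPM in at least 4 libraries, genotype as the only factor, two-sided). P-values were adjusted by Benjamini-Hochberg over all 13813 tested genes, and FDR denotes this adjusted value. Standard errors were the log2 fold change divided by the square root of F, and 95% intervals used the test's degrees of freedom. On simulated counts for 13562 genes, the test recovered 29 of 100 genes changed by 0.5 and 62 of 100 changed by 1 on the log2 scale, with 2 false calls among 93.

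Values in every library are given for Wnt genes past FDR 0.05 or with an unadjusted p under 0.05, the feedback targets, Lef1, Tcf7 and the gene with the most reads in each class. Gsk3b was added after its values were seen. Replicate numbers are not stated to mark litters. The correlation of same-numbered deviations was -0.0284 to 0.0203 over 9035 genes, which cannot show whether libraries were matched. No files were identical. Alternatives were RLE factors, library totals, filterByExpr, no filter, DESeq2 1.42.0, a replicate block, FDR 0.1 and leaving out each library. Some marker lists that were examined are not reported here.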

Additional observations from a re-analysis of the deposited data

Results flagged for a closer look

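In 4 of 54 groups of 4 libraries examined, 1 library stood apart from the other 3 by Dixon's criterion at the 95% level, where chance alone gives about 2.7 of 54. Ctnnb1 was at 659.8 CPM in Bbs8+/+ replicate 3, below 707 to 708.2 CPM in the other Bbs8+/+ libraries, and at 602.1 CPM in Bbs8-/- replicate 3, above 582.1 to 584.6 CPM in the other Bbs8-/- libraries. Both lay toward the other genotype, and without either library the gene stayed below FDR 0.05. Dkk3 was at 170 CPM in Bbs8-/- replicate 4, above 148.6 to 149.3 CPM in the others, and Lef1 was at 9.436 CPM in Bbs8+/+ replicate 2, below 13.61 to 14.22 CPM in the others.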

How the results depend on the processing

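Ctnnb1 and Dkk3 were lower below FDR 0.05 in all 14 alternative fits, with log2 fold changes from -0.27 to -0.23 and from -0.41 to -0.31. Sfrp2 ranged from -0.59 to -0.40 and was called in 12 of 14. The count of lower Wnt genes was therefore 2 to 3 when a library was left out and 3 in the other alternatives, and the count of higher ones was 0 throughout. With the replicate block the counts were 3 lower and 0 higher, and 134 higher and 129 lower over all genes. The blocked fit changed no call among the named Wnt genes. Over all genes, leaving out 1 library gave 101 to 150 lower genes, the fewest without Bbs8-/- replicate 1. The median of the tested Wnt genes was -0.0301 with filterByExpr, which kept 40 of them, and -0.059 to -0.0042 with 1 library left out. The median of all genes was -0.0004 with RLE factors and -0.013 with library totals. Signs turned for 5 genes, none of them called. Axin2 was at 0.00078 in DESeq2, at 0.012 with the replicate block and from -0.16 to 0.17 with 1 library left out. In such fits Nkd1 ranged from -0.48 to 0.11, Rnf43 from -0.42 to 0.22, Tcf7 from -0.63 to 0.27 and Bcl9l from -0.11 to 0.026. Of all alternative values of the named Wnt genes, 245 kept both sign and call, 2 lost the call and 17 changed sign. An unadjusted p under 0.05 was kept in 11 of 14 fits by Wnt5a and by Fzd2, 13 by Fzd7, 12 by Rspo3 and 9 by Lef1. With 1 library left out Fzd4 ranged from -0.093 to -0.035 and Sfrp1 from 0.020 to 0.070. Rnf43 and Tcf7 did not pass filterByExpr. What caused the sign changes was not tested. Changes in genes under 3 counts per library (1.04 to 1.83 CPM) were not detectable.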

Other observations

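The 250 bases before the starts of the 33 Wnt genes with a RefSeq promoter window had a median G and C content of 64.4% and a median of 16 CpG dinucleotides over 43 windows. Over 13752 windows of tested genes the medians were 59.6% and 15, and over all 32851 windows they were 52.4% and 6. Among the families to which the Wnt genes belong, 9 of 10 Frizzled genes, all 5 Sfrp and Frzb genes and 2 of 4 Dickkopf genes passed the filter on low counts, and Dkk1, the classical Lrp6 inhibitor, had no count in any library.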
